A study of Mus musculus with 4 samples.

Results

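Potassium channel genes were examined in the liver methylomes of 4 mice, as the protein-coding genes on autosomes whose RefSeq symbol is Kcn followed by letters and a number. Kcnq1 was left out by the same rule. The symbol rule matched 90 genes, and 88 of them had at least 1 cytosine measured in every mouse within the gene or 2000 bp of it, out of 16840 autosomal protein-coding genes with such a cytosine. Kcnj16 and Kcne2 had none in any mouse. The genes were proposed as silent in liver, but RNA was not analysed here, so their expression is not known from these data and they are called Kcn genes.

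Potassium channels let potassium ions leave or enter a cell along their gradient and so set the membrane potential, and they are best known for shaping electrical signals in neurons, heart and other muscle. The Kcn genes encode the pore-forming subunits of voltage-gated channels, inward rectifiers, channels with a pair of pore domains per subunit and channels opened by calcium or sodium, besides auxiliary subunits that bind to a pore and change its gating or transport. DNA methylation at CpG dinucleotides is usually absent from CpG-dense promoters whether or not the gene is transcribed, and is usual in CpG-poor sequence. CpG-dense stretches inside genes that code for developmental regulators can also lack it.

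Frozen livers of male mice between 6 and 8 weeks of age, all on a normal diet, were profiled by enhanced reduced representation bisulfite sequencing (ERRBS), which cuts DNA with the restriction enzymes MspI and TaqαI, by the study's description of the method, selects fragments by size and reads unconverted cytosines as methylated. Mixed-1 and Mixed-2 were of a mixed background, with C57BL/6J among its strains and the rest not named, and B6-1 and B6-2 were pure C57BL/6. The groups were kept at different institutions, so background and housing cannot be told apart. Bisulfite leaves methylated and hydroxymethylated cytosines alike unconverted, so a methylation level here counts both, and a bulk liver value averages over all its cell types. No label says whether the mice of a group were littermates.

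Coverage summed over cytosines with at least 10 reads was between 60654199 and 99215153 per library, where a read counts at each cytosine it covers. Mean coverage was 44.2 in Mixed-1 and 49.01 in Mixed-2 against 63.7 in B6-1 and 60.1 in B6-2. The Kcn genes had 7621 and 7441 cytosines at that coverage in the mixed mice and 8688 and 8545 in the deeper B6 libraries. The 7135 cytosines present in all 4 mice are called common and were used throughout, of 1276684 in the whole set. Another 687 were covered only in both B6 mice and had a mean methylation of 42.2%. At 10 reads, 3 methylated reads already make 30%, so single cytosines are less certain than means over many. Promoters of liver cell type markers offered little check of the tissue. Of the hepatocyte list only Hnf4a had 5 or more common promoter cytosines (28.7%), of the leukocyte list only Spi1 (77.7%) and of the endothelial list only Kdr (1.71%), while 3 stellate promoters ranged from 3.60% (Lrat) to 22.8% (Pdgfrb) and 4 cholangiocyte promoters from 0.680% (Sox9) to 27.7% (Krt7).

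Averaged over cytosines, methylation of the Kcn genes was low at promoters, intermediate in exons and highest in introns. Promoters, taken as 1000 bp on each side of any curated transcription start, had a mean methylation of 3.27% ± 0.111 (SD, n = 4) over 4332 cytosines with a median coverage of 56 reads, at 3.35% (Mixed-1), 3.37% (Mixed-2), 3.16% (B6-1) and 3.18% (B6-2). First exons beyond the promoter stood at 17.04% ± 0.458 over 216 cytosines of 8 genes, at 16.4% (Mixed-1), 17.2% (Mixed-2), 17.4% (B6-1) and 17.2% (B6-2). Other exons reached 46.4% ± 0.343 over 1004 cytosines, with 46.1% and 46.3% in the mixed mice and 46.9% and 46.3% in the B6 mice. Introns were at 66.3% ± 0.915 over 1207 cytosines, with 66.01% and 67.6% in the mixed mice and 65.5% and 65.9% in the B6 mice. No mouse left this order, and the gaps between regions were many times the spread between mice. Other exons exceeded promoters by 43.1 ± 0.428 percentage points and introns exceeded promoters by 62.99 ± 0.834 points in 4 of 4 mice (two-sided exact sign-flip permutation test, p = 0.125 for each, the smallest p that 4 mice allow). First exons exceeded promoters by 13.8 ± 0.532 points and introns exceeded other exons by 19.9 ± 1.12 points, again in 4 of 4 mice and with the same exact p.

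The size of these gaps, and the order of other exons and introns, depended on how cytosines were summarized. Giving each gene the same weight put other exons at 67.6% and introns at 69.9%, and their gap fell to 2.30 points. The medians over genes were in the reverse order, at 83.2% for other exons and 76.5% for introns. The mean over cytosines gives more weight to genes with many of them, such as Kcng2 with 84 cytosines in a single exon at 3.37%. With promoters limited to the 1000 bp upstream of a start, first exons were at 3.87% over 2523 cytosines, a gap to promoters of 0.665 points, and introns exceeded other exons by 4.12 points. With promoters of 2000 bp on each side, only 21 first-exon cytosines remained, at 75.2%.

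The classes of single cytosines showed the same order. Under 20% methylation lay 96.6% of promoter cytosines, 76.2% of those in first exons beyond the promoter, 40.9% in other exons and 16.8% in introns. Over 80% lay 0.641%, 6.13%, 34.3% and 49.3% of them. Exons other than the first thus held cytosines of both extremes, with only 24.8% between them.

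Much of the variation followed CpG density, and a cytosine was called CpG-dense when the 200 bp around it had a GC content of 50% or more and a CpG ratio, observed over expected from its bases, above 0.6. In the gene bodies, which here are exons and introns outside the promoter, CpG-dense cytosines had 25.5% ± 0.429 (SD, n = 4, 964 cytosines) and CpG-poor ones 72.2% ± 0.758 (1463 cytosines). CpG-poor cytosines exceeded CpG-dense ones by 46.7 ± 1.01 points in 4 of 4 mice (exact sign-flip permutation p = 0.125), and by 19.5 points when each gene had the same weight. Within one density class the exons and introns were closer. CpG-dense cytosines had 27.05% ± 0.635 in other exons and 34.2% ± 0.152 in introns, and CpG-poor ones 73.04% ± 0.238 and 72.3% ± 1.08. Of the cytosines in other exons 57.97% were CpG-dense, against 15.9% of those in introns.

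**Figure D1:**
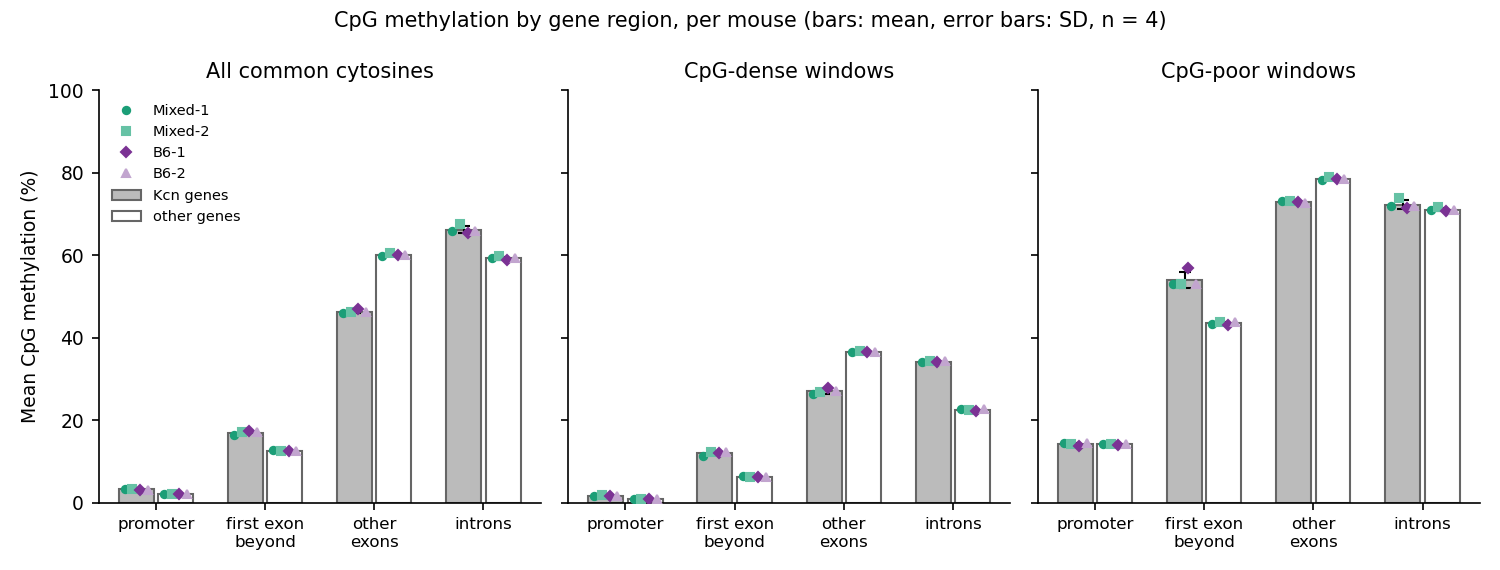
Mean CpG methylation (%) of promoters, first exons beyond the promoter, other exons and introns in the Kcn genes (grey bars) and in all other autosomal protein-coding genes (white bars), for all, CpG-dense and CpG-poor common cytosines, with 1 point per mouse and SD over 4 mice as error bars. Kcn promoters sit at 3.27% and Kcn introns at 66.3%, and Kcn exons other than the first, at 46.4%, sit below the 60.2% of other genes.

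Set against the other genes of the genome, the Kcn genes were lower in exons other than the first and higher in promoters and in first exons beyond the promoter, while the direction in introns depended on the weighting. Their other exons lay 13.8 ± 0.423 points (SD, n = 4) below the 60.2% of other genes, in 4 of 4 mice (exact sign-flip permutation p = 0.125, as for each difference of this kind below). The gap was 9.56 ± 0.661 points among CpG-dense and 5.603 ± 0.379 points among CpG-poor exonic cytosines, and other genes had 43.9% CpG-dense cytosines in these exons. Kcn introns lay 6.91 ± 0.579 points above the 59.3% of other genes, with 11.6 ± 0.216 points among CpG-dense and 1.19 ± 0.645 points among CpG-poor cytosines. Kcn promoters lay 1.08 ± 0.0861 points above the 2.18% of other genes. First exons beyond the promoter lay 4.42 ± 0.533 points above 12.6%, but only 8 Kcn genes had cytosines there. Weighted by gene, these 8 had 31.8%, which was 3.53 ± 0.821 points above 512 other genes, with medians of 31.0% and 6.08%. Among CpG-poor promoter cytosines the gap was 0.0349 ± 0.232 points, higher in 2 mice and lower in 2 (p = 0.875, exact). With each gene weighted alike, other exons of 63 Kcn genes stayed 7.396 ± 0.525 points below those of 8747 other genes in 4 of 4 mice, and promoters stayed 0.4405 ± 0.131 points above. The medians over genes were closer in these exons, at 83.2% for Kcn and 86.4% for other genes, and were 2.205% and 0.355% in promoters. Introns then lay on the other side, with a difference of -0.703 ± 0.715 points over 67 and 11030 genes, positive in 1 of 4 mice (exact p = 0.25), and medians of 76.5% and 79.6%. The cytosines of a gene are not independent, and these tests are over 4 mice, not over genes.

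Around the starts of the Kcn genes methylation was low over a wide stretch. From 1500 bp before to 1500 bp after the nearest curated start, the 250-bp bins of Kcn genes ranged from 2.14% to 8.82%. Other genes ranged from 1.301% to 17.6% over the same bins. The 6 bins within 750 bp of the start were higher in the Kcn genes, 6 of 6 in each of the 4 mice, and the 6 bins between 750 and 1500 bp away were lower, 6 of 6 in each mouse. From 250 to 500 bp after the start the Kcn genes had 4.36% ± 0.287 (SD, n = 4) over 795 cytosines, and other genes 1.93% ± 0.0269. From 1250 to 1500 bp after it they had 8.82% ± 0.309 over 123 cytosines of 10 genes, and other genes 15.996% ± 0.116. Between 1250 and 1500 bp before the start the values were 2.16% ± 0.216 over 52 cytosines of 7 genes and 17.6% ± 0.0843. The bins named here were picked after their values were seen, and neighbouring bins share genes, so these differences are a description with no test. From 1500 to 1750 bp the Kcn genes had 19.5% ± 0.989 over 70 cytosines, against 21.1% ± 0.218 in other genes, and from 2000 to 2250 bp 66.9% ± 2.35 over 28, against 30.4% ± 0.291. Further on, the bins of the Kcn genes varied widely, as with 12.6% over 55 cytosines from 2750 to 3000 bp, where other genes had 41.6%, and 68.4% over 38 from 3250 to 3500 bp, where other genes had 41.7%.

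**Figure D2:**
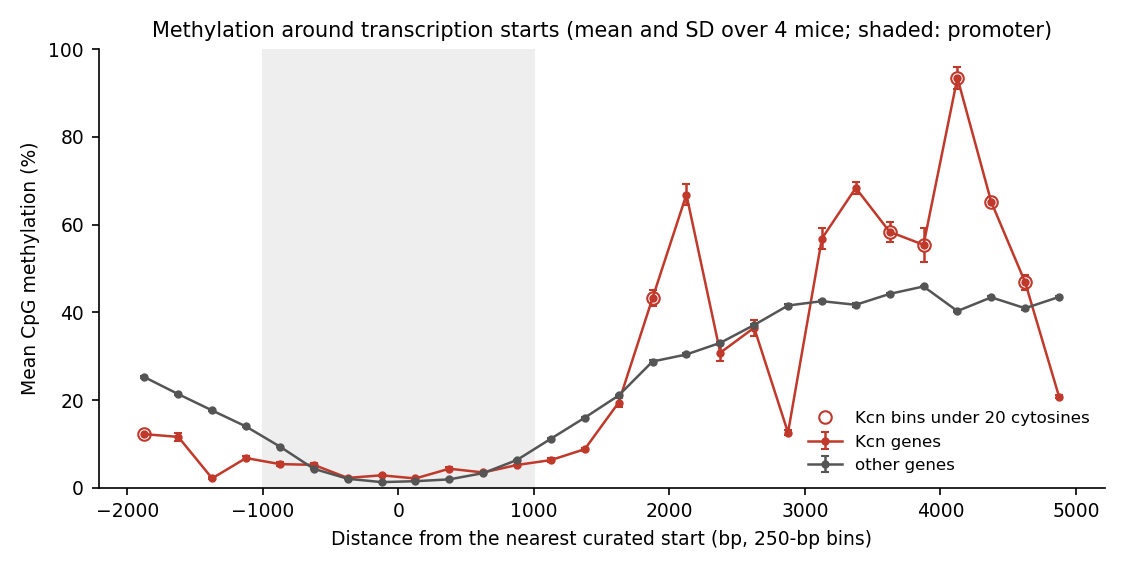
Mean CpG methylation (%) against the distance from the nearest curated start in 250-bp bins, for the Kcn genes (red) and all other genes (grey), with SD over 4 mice and open circles where a Kcn bin holds under 20 cytosines. The Kcn genes stay under 9% from 1500 bp before to 1500 bp after the start and scatter further downstream, where each bin rests on few cytosines.

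By gene, most Kcn promoters were unmethylated. Of the 88 genes, 71 had at least 5 common promoter cytosines, 7 had 1 to 4 and 10 had none. Of the 71, 65 had a mean under 20%, 6 lay between 20% and 80% and 0 above 80%. Means of 20% or more were thus held by 8.45% of these genes, near the background of 6.9% among all 13017 autosomal protein-coding genes with as many promoter cytosines. The median over the 71 genes was 1.98% and over all genes 0.284%, and 56 of the 71 lay under 5%. The lowest was Kcna4, a voltage-gated pore subunit, at 0.0752% ± 0.0869 (SD, n = 4) over 7 cytosines. The largest set of promoter cytosines belonged to Kcng3, a modifier subunit, with 1.32% ± 0.184 over 220.

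The voltage-gated pore subunits had the lowest promoters. All 32 of their genes with 5 or more promoter cytosines were under 20%, with a median of 1.27%. Kcna5, a pore subunit of the atrial ultrarapid current, had 12.4% ± 3.04. Medians were 2.69% for 9 inward rectifiers, 2.23% for 12 channels with a pair of pore domains and 1.97% for 5 calcium- or sodium-activated channels, each with 1 gene at 20% or more. The 13 auxiliary subunits had the highest median, 10.4%, and 3 of them reached 20%. Other voltage-gated cation channels, the sodium, calcium and hyperpolarization-activated (Hcn) pore genes listed for comparison, had 14 such promoters, all under 20%, with a median of 1.49%.

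**Figure D3:**
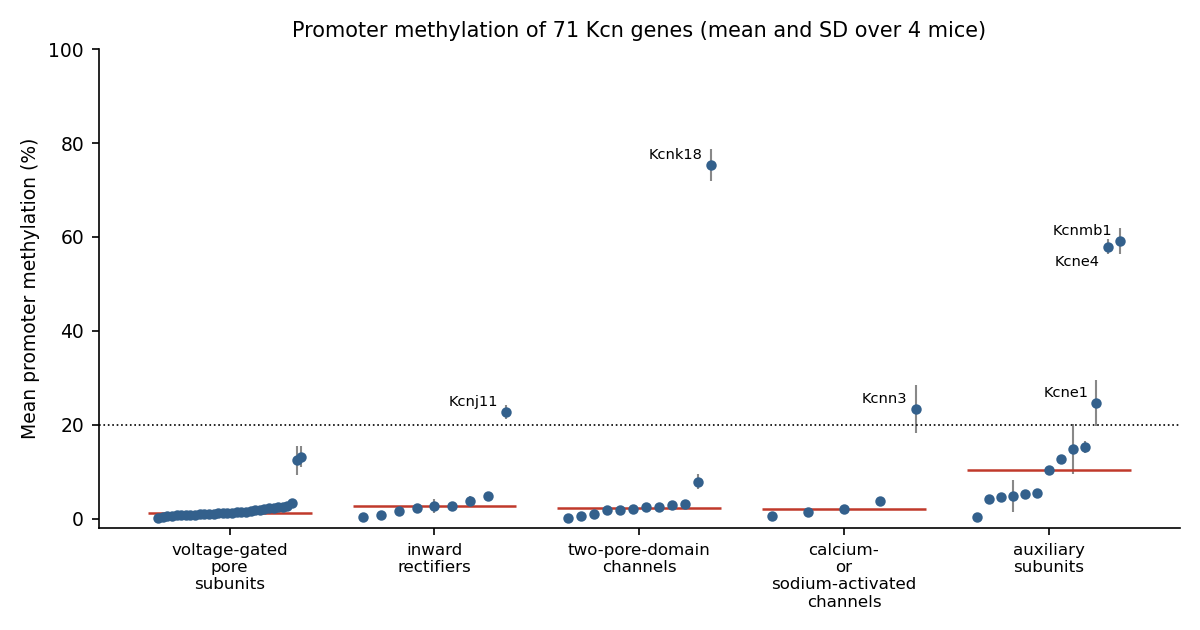
Mean promoter methylation (%) of the 71 Kcn genes with at least 5 common promoter cytosines, by family, with SD over 4 mice, the family median as a red line and 20% dotted. The 6 named genes lie above 20%, 3 of them auxiliary subunits, and the other 65 lie below it.

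The promoters at 20% or more were those of Kcnk18, Kcnmb1, Kcne4, Kcne1, Kcnn3 and Kcnj11. Kcnk18 (chr19:59219648-59237370 in GRCm38), a background channel best known from sensory ganglia, had 75.4% ± 3.38 (SD, n = 4) over 12 cytosines, at 79.7% (Mixed-1), 71.5% (Mixed-2), 74.5% (B6-1) and 75.9% (B6-2). It was the highest of the 71 in every mouse, and its single cytosines ranged from 55.8% to 98.3%. Kcnmb1 (chr11:33962955-33973641), the beta subunit of the large-conductance calcium-activated channel in smooth muscle, had 57.5% (Mixed-1), 63.3% (Mixed-2), 57.7% (B6-1) and 58.2% (B6-2) over 5 cytosines. Kcnmb1 and its promoter lie inside Kcnip1 (chr11:33629339-33993348), so these cytosines also belong to that Kcn gene. Kcne4 (chr1:78816911-78820032), a small subunit that inhibits voltage-gated channels, had 59.4% (Mixed-1), 56.3% (Mixed-2), 59.2% (B6-1) and 56.7% (B6-2) over 13 cytosines. Its single cytosines ranged from 0% to 95.4%. The promoter means of these 3 genes kept above 55% in each mouse, and the groups overlapped in each of them.

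The other 3 lay near the threshold. Kcne1 (chr16:92346001-92359468), a small partner of the pore of the slow cardiac current, had 24.2% (Mixed-1), 17.99% (Mixed-2), 27.02% (B6-1) and 29.2% (B6-2) over 11 cytosines. Kcnn3 (chr3:89520164-89672494), a small-conductance calcium-activated channel, had 16.8% (Mixed-1), 23.8% (Mixed-2), 23.4% (B6-1) and 29.2% (B6-2) over 11, all of them upstream of the start. In both genes 1 mixed mouse fell below 20%. Kcnj11 (chr7:46097123-46100952), the pore of the ATP-sensitive channel, had 21.3% (Mixed-1), 24.8% (Mixed-2), 22.3% (B6-1) and 22.7% (B6-2) over 20 cytosines and stayed above 20% in every mouse. Its methylation was not spread over the promoter. The 10 cytosines before the start had 4.62% ± 1.04 (SD, n = 4) and the 10 at or after it 40.9% ± 3.21.

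In the reference sequence these promoters tended to a lower CpG ratio, which the rule did not use, but the ranges overlapped. Over the whole promoter, the CpG ratio was 0.176 to 0.5001 in the 6 genes at 20% or more, with a median of 0.302, and 0.276 to 0.940 in the 65 others, with a median of 0.569 (all genes, 0.613). Across the 71 genes the ratio and the methylation had a Spearman correlation between -0.533 and -0.489 in the 4 mice, over genes that share libraries and are not independent replicates. A 200-base window outside any annotated exon is shown, 5′ to 3′ along the gene, for 3 of the methylated promoters and for an unmethylated one, that of Kcnj12, the inward rectifier gene with the most common cytosines. Capitals mark the CpGs measured in every mouse.
Kcnk18: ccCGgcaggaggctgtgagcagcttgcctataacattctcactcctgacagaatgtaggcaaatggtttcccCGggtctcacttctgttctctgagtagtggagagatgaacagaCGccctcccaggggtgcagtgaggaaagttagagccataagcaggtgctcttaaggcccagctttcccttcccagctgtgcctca
Kcnmb1: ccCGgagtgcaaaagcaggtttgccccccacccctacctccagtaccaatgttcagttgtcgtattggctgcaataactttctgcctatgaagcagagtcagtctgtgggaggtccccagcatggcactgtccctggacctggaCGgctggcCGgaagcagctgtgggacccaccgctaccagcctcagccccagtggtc
Kcnn3: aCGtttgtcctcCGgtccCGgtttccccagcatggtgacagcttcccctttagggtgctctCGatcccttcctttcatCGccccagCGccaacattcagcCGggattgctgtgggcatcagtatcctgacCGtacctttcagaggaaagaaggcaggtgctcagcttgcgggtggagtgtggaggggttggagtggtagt
Kcnj12: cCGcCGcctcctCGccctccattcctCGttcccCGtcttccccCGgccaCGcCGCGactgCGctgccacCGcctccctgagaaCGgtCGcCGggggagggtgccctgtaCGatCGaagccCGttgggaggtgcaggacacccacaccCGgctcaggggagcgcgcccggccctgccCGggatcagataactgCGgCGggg
The Kcnk18 window, chr19:59220026-59220225 (plus strand), lies in the first intron, and 3 of 3 CpGs were measured, through 4 cytosines, with a mean of 69.6% ± 2.68 (SD, n = 4). In the Kcnmb1 window, chr11:33962464-33962663 (plus strand), 3 of 5 CpGs were measured, through 4 cytosines, with a mean of 61.9% ± 1.33. In the Kcnn3 window, chr3:89519755-89519954 (plus strand), 8 of 9 CpGs were measured, through 10 cytosines, with a mean of 18.4% ± 4.998, at 12.1% (Mixed-1), 18.3% (Mixed-2), 19.01% (B6-1) and 24.3% (B6-2). The first pair is thus CpG-poor and mostly methylated, and the Kcnn3 window holds more CpGs at a lower level. The Kcnj12 window, chr11:61022352-61022551 (plus strand), holds many more CpGs, of which 21 of 24 were measured, with a mean of 0.801% ± 0.196. No cytosine of the Kcnj12 window exceeded 2.64% on average over the mice.

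Another 6 promoters lay between 10% and 20%, among them Kcnip2, Kcnab1, Kcnip1 and Kcne3, which encode auxiliary subunits. In 3 of these the level was uneven over the promoter. Kcne3, a small subunit of epithelial channels, had 20.01% ± 2.304 (SD, n = 4) over 7 cytosines before and 3.75% ± 1.68 over 10 after the start. Kcnip2, a calcium-binding partner of the transient outward current, had cytosines on both sides from near 0 to over 80%, with 22.5% ± 0.393 over 16 before and 11.3% ± 1.83 over 29 after. All 45 promoter cytosines of Kcnip1, a related subunit, lay after a start and ranged from 0% to 88.9%.

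The 7 genes with 1 to 4 promoter cytosines add little. Kcnt2 and Kcns1 had 0.605% ± 1.21 and 2.24% ± 0.547 (SD, n = 4), and Kcnj15, Kcng4, Kcnn4, Kcnj14 and Kcnj13 ranged from 22.97% to 79.3%, each over no more than 4 cytosines. The 10 genes with none were Kcnmb3, Kcnu1, Kcnj1, Kcnj9, Kcnk16, Kcnk7, Kcnv1, Kcnv2, Kcna10 and Kcnc2. Their promoter CpG ratios ran from 0.128 to 0.492, so the counts above cover the CpG-richer promoters more fully.

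Gene bodies were methylated in most Kcn genes, with clear exceptions. Of the 68 genes with at least 5 body cytosines, 22 had a mean over 80%, 40 lay between 20% and 80% and 6 under 20%, around a median of 71.4% (78.6% over all 10112 genes). Medians by family were 64.1% for 31 voltage-gated pore subunits, 74.3% for 7 inward rectifiers, 57.8% for 12 channels with a pair of pore domains, 79.4% for 8 calcium- or sodium-activated channels and 71.7% for 10 auxiliary subunits. Promoter and body levels were barely related across the 59 genes with both, with a Spearman correlation between 0.0867 and 0.183 in the 4 mice. Another 15 genes had 1 to 4 body cytosines and 5 had none.

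Among genes with at least 10 body cytosines the highest were Kcnj5, Kcnb2 and Kcnn1. Kcnj5, an inward rectifier opened by G proteins in the atrium, had 94.4% (Mixed-1), 92.4% (Mixed-2), 91.9% (B6-1) and 90.6% (B6-2) over 11 cytosines. Kcnb2, a delayed-rectifier pore subunit, had 90.02% and 92.3% in the mixed mice and 94.3% and 91.3% in the B6 mice over 23. Kcnn1, a small-conductance calcium-activated channel, had 93.3% and 91.7% in the mixed mice and 91.4% and 89.4% in the B6 mice over 12. These bodies were close to fully methylated in each mouse, while the promoters of the same genes had 2.69%, 0.8096% and 3.66%. The lowest were Kcnab3, Kcna1 and Kcnk9. Kcnab3, a cytoplasmic beta subunit, had 0.098% (Mixed-1), 1.204% (Mixed-2), 0.673% (B6-1) and 0.808% (B6-2) over 12 cytosines, all in its last exon. Kcna1, a pore subunit of axons, had 1.53% (Mixed-1), 1.87% (Mixed-2), 1.69% (B6-1) and 2.32% (B6-2) over 89. Kcnk9, an acid-sensitive background channel, had 13.8% and 14.5% in the mixed mice and 13.4% and 13.9% in the B6 mice over 58, with single cytosines between 0% and 98.8%. Kcna1 thus stayed unmethylated through its whole measured body, and Kcnk9 did not.

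Among the genes with the most common cytosines in their families, both states occurred. Kcnma1, the pore of the large-conductance calcium-activated channel, had a body mean of 78.2% ± 1.86 (SD, n = 4) over 95 cytosines beside a promoter of 1.39% ± 0.202 over 110. Kcnj12, an inward rectifier of muscle, had 85.9% ± 0.586 in the body and 4.76% ± 0.207 in the promoter, and Kcnab2, a cytoplasmic beta subunit, 71.4% ± 0.496 and 4.0999% ± 0.357. Kcnk12 had only 27.2% ± 1.703 in its body over 37 cytosines, with 92.7% ± 1.39 at its 8 CpG-poor and 9.19% ± 2.01 at its 29 CpG-dense cytosines.

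The CpG-dense parts of the bodies carried this spread. Of 21 Kcn genes with at least 10 CpG-dense body cytosines, 14 had a mean under 20%, 6 lay between 20% and 80% and 1 exceeded 80%. Under 20% lay 51.1% of the 2499 autosomal protein-coding genes with as many, whose median was 18.5%, and the median of the 21 was 9.19%. Of the 964 CpG-dense body cytosines of all Kcn genes, 658 averaged under 20%, 136 between 20% and 80% and 170 over 80%. The 658 had a median CpG ratio of 0.884 and 68.5% GC in the 200 bp around them, and the 170 had 0.714 and 56%. Among the 658, 161 lay within 1000 bp of the start of another RefSeq transcript and 105 within another gene, against 9 and 13 of the 170. Leaving out all body cytosines near another start moved the mean of other exons from 46.4% to 49.98% and of introns from 66.3% to 72.9%.

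The 3 lowest genes were Kcna7, Kcnk13 and Kcnab3. Kcna7, a voltage-gated pore subunit, had 1.07% (Mixed-1), 0.278% (Mixed-2), 0.323% (B6-1) and 0% (B6-2) over 10 CpG-dense cytosines, all of them coding and in exon 1. Its 9 CpG-poor body cytosines had 79.9% ± 5.18 (SD, n = 4). Kcnk13, a background channel related to Kcnk12, had 0.676% (Mixed-1), 0.666% (Mixed-2), 0.5095% (B6-1) and 0.812% (B6-2) over 53, all in exon 2. Kcnab3 had 0.098% and 1.204% in the mixed mice and 0.673% and 0.808% in the B6 mice over 12. Each of these lay within 2 points of 0 in every mouse, and none of their cytosines was near another start. Kcnma1 was the highest, with 83.6% (Mixed-1), 84.5% (Mixed-2), 85.4% (B6-1) and 86.8% (B6-2) over 20 cytosines. Kcnq5, a pore subunit of the M current, had 55.3% and 55.8% in the mixed mice and 55.9% and 57.5% in the B6 mice over 14. Both lay apart from the 3 lowest genes in every mouse, while neighbours such as Kcnk13 and Kcnab3, or Kcng1 (43.98% ± 1.15), Kcng4 (44.9% ± 7.93) and Kcna6 (45.1% ± 2.88), did not differ beyond their spread.

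Windows of 200 coding bases illustrate CpG-dense coding sequence in either state. For each gene the window with the most measured CpG-dense cytosines is given, first 2 methylated and then 3 unmethylated ones, 5′ to 3′ along the gene in GRCm38, with the CpGs measured in every mouse in capitals.
Kcnma1: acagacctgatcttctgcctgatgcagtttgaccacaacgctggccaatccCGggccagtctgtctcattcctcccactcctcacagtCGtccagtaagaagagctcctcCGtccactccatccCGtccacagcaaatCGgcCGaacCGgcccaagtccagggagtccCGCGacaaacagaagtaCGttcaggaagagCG
Kcnj12: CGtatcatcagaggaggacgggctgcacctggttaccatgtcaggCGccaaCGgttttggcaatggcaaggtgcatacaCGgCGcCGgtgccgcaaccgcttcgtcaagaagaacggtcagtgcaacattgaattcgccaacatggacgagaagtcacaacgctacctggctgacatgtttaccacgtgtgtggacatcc
Kcna7: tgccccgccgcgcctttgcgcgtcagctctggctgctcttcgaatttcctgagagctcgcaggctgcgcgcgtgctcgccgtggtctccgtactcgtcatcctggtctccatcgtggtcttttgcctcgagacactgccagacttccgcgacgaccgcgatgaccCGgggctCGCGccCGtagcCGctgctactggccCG
Kcnk13: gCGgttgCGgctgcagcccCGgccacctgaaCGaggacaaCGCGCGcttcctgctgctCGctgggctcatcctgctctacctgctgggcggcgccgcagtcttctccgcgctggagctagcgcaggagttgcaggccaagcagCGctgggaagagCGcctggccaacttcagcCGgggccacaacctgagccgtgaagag
Kcnk12: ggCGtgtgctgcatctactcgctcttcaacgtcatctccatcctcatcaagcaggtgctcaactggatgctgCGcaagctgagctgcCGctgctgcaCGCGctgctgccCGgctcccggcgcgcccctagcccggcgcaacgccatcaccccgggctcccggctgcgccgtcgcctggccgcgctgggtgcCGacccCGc
In the Kcnma1 window, chr14:23309022-23309221 (minus strand), 11 of 12 CpGs were measured, through 14 cytosines, with a mean of 88.2% ± 1.66 (SD, n = 4), at 85.9% (Mixed-1), 89.1% (Mixed-2), 88.3% (B6-1) and 89.6% (B6-2). In the Kcnj12 window, chr11:61069219-61069418 (plus strand), 6 of 15 CpGs were measured, through 6 cytosines, with a mean of 93.4% ± 3.56. Both windows lie outside the promoters of their genes, while the Kcna7 window begins inside its promoter and its measured cytosines lie just past it. CpG-dense body cytosines lay at a median of 1032.5 bp from the nearest start in Kcna7 and 1344 bp in Kcnk13. In Kcnk12 and Kcnma1 these medians were 51819 bp and 695125 bp. In the Kcna7 window, chr7:45406816-45407015 (plus strand), 6 of 27 CpGs were measured, through 10 cytosines, with a mean of 0.418% ± 0.458. The Kcnk13 window, chr12:99965957-99966156 (plus strand), had 11 of 18 CpGs measured, with a mean of 1.14% ± 0.769. In the Kcnk12 window, chr17:87746175-87746374 (minus strand), 8 of 23 CpGs were measured, through 8 cytosines, with a mean of 3.28% ± 2.39. The CpG ratios were 0.758 and 0.975 in the methylated windows and 1.23, 0.767 and 0.944 in the unmethylated ones, so they overlapped. The GC content did not, with 58% and 55.5% against 67%, 68.5% and 71%. Kcna7 and Kcnk13 were taken for their low CpG-dense bodies, and Kcnma1 was among the highest, so their states were given by the choice. Kcnj12 and Kcnk12 were taken as the genes of their families with the most common cytosines. Within a gene the window was chosen by coverage, and 5 windows do not make a rule.

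Exons of a single gene could differ as much as genes did. Kcns1, a modifier of voltage-gated channels, had 9.01% ± 0.714 (SD, n = 4) over 61 cytosines of exon 3, chr2:164167812-164168857, and 94.4% ± 1.4999 over 16 of exon 4, chr2:164163619-164165015. By mouse, exon 3 had 9.78% (Mixed-1), 8.75% (Mixed-2), 8.15% (B6-1) and 9.37% (B6-2), while exon 4 had 94.6% (Mixed-1), 95.1% (Mixed-2), 95.8% (B6-1) and 92.3% (B6-2). The exons did not overlap in any mouse, and 62 of the 77 CpG-dense body cytosines of Kcns1 lay within 1000 bp of another start. In Kcng4, also a modifier, exon 2 had 52.3% ± 5.54 over 41 cytosines and exon 4 85.4% ± 4.17 over 16. Of the 21 CpG-dense body cytosines of Kcng4, 19 lay within 1000 bp of another start. Kcna1 was low in both exons, with 1.102% ± 0.0848 over 47 noncoding cytosines of exon 1 and 2.87% ± 0.726 over 38 of exon 2, of which 32 were coding. Kcng2, a modifier subunit, likewise had 3.37% ± 0.387 over 84 coding cytosines of exon 3 and 4.53% ± 0.956 over 20 of exon 4. Single coding exons of Kcnc1, a fast-firing delayed rectifier (15.1% ± 0.529 over 61 cytosines of exon 1), and of Kcnn4, the intermediate-conductance calcium-activated channel (8.35% ± 0.672 over 34 of exon 3), were low but not at 0. At the other end, the last exon of Kcnh1, an ether-a-go-go channel, had 93.8% ± 0.718 over 24 cytosines and exon 2 of Kcnb2 92.95% ± 3.12 over 11, all of them coding.

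Whether background and housing altered these genes was tested by comparing the 2 mixed with the 2 B6 mice, and no Kcn gene differed past the thresholds. Over all Kcn promoters the mean was 3.36% ± 0.0177 (SD, n = 2) in the mixed and 3.17% ± 0.0198 in the B6 mice, a difference of 0.1897 points that exceeded the spread within groups (two-sided exact permutation p = 0.333, the smallest that 2 mice against 2 allow). Over the bodies it was 53.8% ± 0.6498 and 53.5% ± 0.0301, a difference of 0.331 points within the spread of the mixed mice (p = 1, exact), and without Mixed-2 it was -0.129 points. The B6 libraries were deeper, so depth and background cannot be told apart.

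A logistic model for each cytosine, with the spread between mice moderated by limma and p-values adjusted over all 1276684 common cytosines, called 0 of the 7135 Kcn cytosines at an adjusted p under 0.01 and a difference of at least 25 points, where it called 0.00791% of all cytosines. At an unadjusted p under 0.05 there were 212 Kcn cytosines, or 2.97%, beside 2.1% of all. With edgeR there were 227 at an unadjusted p under 0.05, beside 2.21% of all. The smallest adjusted p of the limma-moderated model was 0.752, for a coding cytosine in exon 3 of Kcng2 with 28.3% (Mixed-1), 29.4% (Mixed-2), 6.48% (B6-1) and 7.78% (B6-2) at coverages from 51 to 108. The groups did not overlap at this cytosine, nor at one in the promoter of Kcnk2, a mechanosensitive background channel, with 63.2% (Mixed-1), 44% (Mixed-2), 19.7% (B6-1) and 26.8% (B6-2). Leaving out Mixed-2 or B6-2 moved the calls of Kcn cytosines, and leaving out Mixed-1 or B6-1 did not. Each of these fits has a single mouse in a group, so its calls are listed only among the alternatives at the end.

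Of the 71 promoters 0 were called by the same model on summed reads, at an adjusted p under 0.05 and at least 5 points, as were 0% of all 13017 promoters. At an unadjusted p under 0.05 there were 4 of the 71, or 5.63%, beside 3.96% of all promoters, and with edgeR 1, beside 6.6% of all. The smallest adjusted p was 0.847, for Kcnip2 with methylated shares of summed reads of 18.02% (Mixed-1), 20.4% (Mixed-2), 12.1% (B6-1) and 14.3% (B6-2). Of the 68 bodies 0 were called, beside 0.188% of all 10112 bodies. At an unadjusted p under 0.05 there were 15 bodies, or 22.1%, beside 13.3% of all, and with edgeR 12, beside 15.1% of all. Kcna7 had an adjusted p of 0.0744.

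For the bodies of Kcna7 and Kcnn2 the weighting decided the difference. By summed reads Kcna7 had 29.3% and 24.9% in the mixed mice and 51.96% and 45.5% in the B6 mice, but with each cytosine weighted alike it had 41.5% and 35.3% in the mixed mice and 38.6% and 36.8% in the B6 mice. Kcnn2, a small-conductance calcium-activated channel, had 15.2% and 22.4% in the mixed mice and 27.2% and 30.7% in the B6 mice by summed reads, against 24.8% and 26.3% in the mixed mice and 25.4% and 25.5% in the B6 mice by cytosine. In both the groups were apart by summed reads and overlapped by cytosine. The calls of bodies moved whichever mouse was left out. Such a fit has a single mouse in a group, so its calls are listed only among the alternatives at the end.

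**Figure D4:**
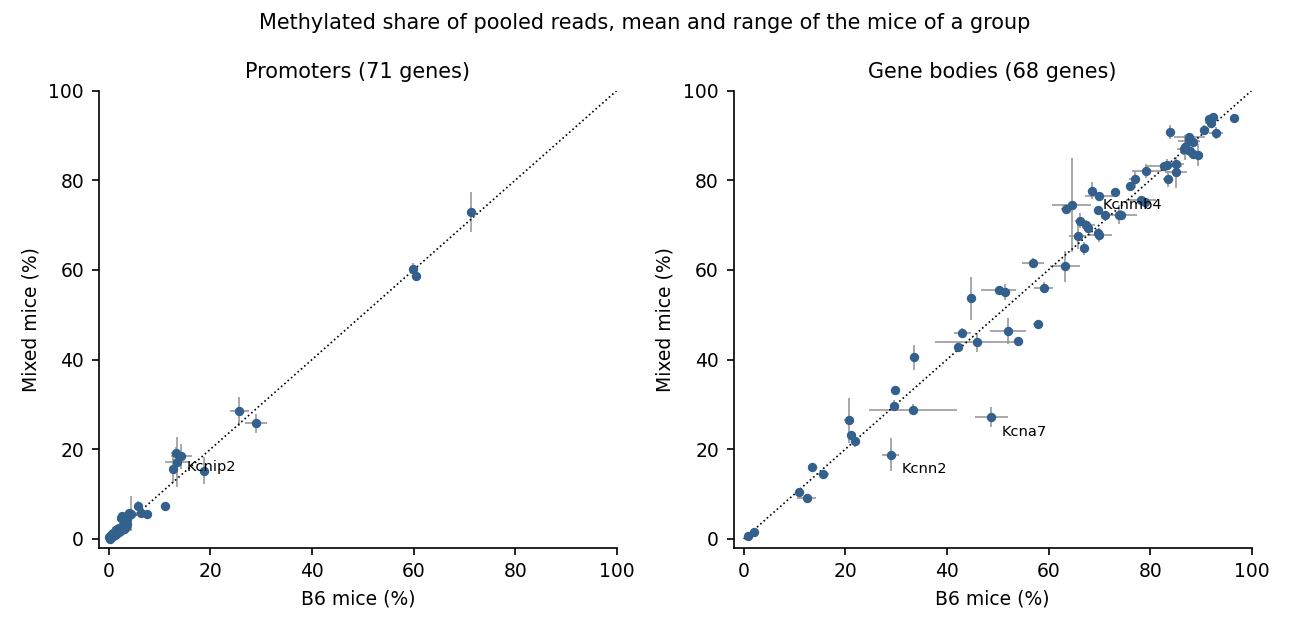
Methylated share of summed reads (%) in the mixed mice against the B6 mice for 71 Kcn promoters and 68 Kcn gene bodies, with each point at the mean of a group, bars to its mice and the line of equality dotted. The promoters lie along the line, with Kcnip2 marked, and among the bodies Kcna7 and Kcnn2 lie below it and Kcnmb4 above it.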

How the data were processed

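Liver DNA of 4 mice was measured by ERRBS. The authors mapped single-end reads of 50 cycles to mm10, with BSMAP by the study's methods and with Bismark and SAMtools by the submitters' processing notes, and called each mouse on its own. The authors deposited the coverage of every CpG cytosine and strand as a count of reads, with a minimum of 10 and no normalization. The share of C and of T among them was deposited as a percent. Non-CpG cytosines and other assays were not analysed here.

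Cytosines present in all mice were placed on GRCm38 and its RefSeq curated transcripts, in the order promoter, first exon, other exon, intron and the 2000 bp around the gene. Methylated reads were computed as percent times coverage. A region mean is the mean over its cytosines in a mouse, given as mean ± SD over mice. Intervals between mice measure only the spread between these samples, and PCR copies were not removed. The members and gene lists were chosen with earlier results of these data known.

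Differences within mice were tested with exact sign-flip permutations and groups with exact permutations. Single cytosines, promoters and bodies were compared in a logistic model with overdispersion moderated by limma 3.58.1 in R 4.3.3 and Benjamini-Hochberg adjustment over all units. The prior was estimated from units between 20% and 80%, a change to the planned fit, made because cytosines without spread drove the prior to 0 in simulated data. Tested on simulated data, it recovered 75.5% of 200 cytosines changed by 50 points among 100000, with 0 false calls, 98.5% of 200 promoters changed by 20 points among 13017, with 3 false calls, and 61.5% of 200 bodies changed by 20 points among 10112, with 2 false calls. edgeR 4.0.16 was run on the methylated and unmethylated read counts as an alternative.

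Named genes were, by rule, promoters at 20% or more, the gene of each family with the most common cytosines, the 3 highest and lowest bodies (10 or more cytosines) and the 3 highest and lowest CpG-dense bodies. Some results for single members are not reported here. Other genes are named as examples, chosen after their values were seen. Alternatives covered coverage of 20, a coverage ceiling, merged strands, other promoters, pooled reads, equal weight per gene, all transcripts, overlapping genes, other bounds and tests, a replicate block and leaving out each mouse. Leaving out body cytosines near another start, and equal weight per gene in the comparison with other genes, were added after seeing the data.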

Additional observations from a re-analysis of the deposited data

How the results depend on the processing

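Of 157 recomputed values, 143 kept their direction and their side of the threshold or stayed within 1.5 times the count, 12 moved and 2 reversed. The differences between region means of the Kcn genes kept their direction under every alternative run. With 4 mice none could pass 0.05, and their ranges were wide. Other exons minus promoters ran from 38.2 to 58.2 points and introns minus promoters from 46.9 to 69.7. First exons minus promoters ran from 0.665 to 71.2 and introns minus other exons from 2.30 to 23.3. The range was 19.5 to 52.7 for CpG-poor minus CpG-dense cytosines. One reversed value was the difference of Kcn introns from those of other genes, -0.703 points with each gene weighted alike against 6.91 over cytosines. The other was the difference of bodies between mixed and B6 mice without Mixed-2, -0.129 points, and leaving out each mouse gave -0.129 to 0.790. With class bounds of 10% and 90%, 12 promoters were intermediate instead of 6. Pooling the reads of a group in Fisher's exact test, which ignores the spread between mice, called 6 Kcn cytosines, 1 promoter (Kcnip2) and 14 bodies. Leaving out each mouse called 0 to 5 cytosines, 0 to 0 promoters and 1 to 8 bodies. The fits that left out a mouse had a single mouse in a group, so their calls are no evidence of a difference in the Kcn genes. Over all cytosines and all bodies, each of these fits also called more than the model with all 4 mice. The cause of the moved values was not tested.

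With the replicate number as a block, 1 Kcn cytosine (in Kcnh1) and 3 bodies (Kcna7 and Kcnn2 among them) were called, and 0 promoters. The mean differences of 0.190 points in promoters and 0.331 in bodies stay the same in a paired fit by construction. The numbers were only shared, since deviations of same-numbered mice were unrelated (correlation 0.00906 over Kcn cytosines). Over all units the model called 101 cytosines, with the block 697, with Fisher's test 1612 and with edgeR 220. It called 19 bodies, against 177, 1500 and 0, and 0 promoters, against 13, 270 and 0. Coverage limits single cytosines, and the number of mice limits the means.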
